A study of Homo sapiens with 12 samples.

Results

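The 8 genes described here encode the linear ubiquitin ligase complex, known as LUBAC, and the TBK1 and IKBKE kinases with their adaptors. They were chosen by symbol: RNF31, RBCK1 and SHARPIN for LUBAC, TBK1 and IKBKE for the kinases, and TANK, AZI2 and TBKBP1 for the adaptors. All 8 were found among 25369 genes in the deposited tables, and all 8 passed the filter on low values that 14627 genes passed. RNA had been sequenced from HEK293T cells, a human line derived from embryonic kidney and widely used for transfection, which the growth conditions name as HEK293. The plasmid they received made either the Halo tag joined to a TNIP2 fragment, residues 196 to 346, or the tag without a partner (Control). The Halo tag is a protein tag that binds covalently to a resin, so that the tagged protein and what it carries can be purified. The 4 groups were TNIP2 Pulldown, TNIP2 Input, Control Pulldown and Control Input, with 3 libraries each, where Input is RNA of the cell extract (100 µl) and Pulldown is RNA of the material purified through the tag (90 µl). All groups were transfected, and ribosomal RNA was removed from all. None of the groups was untransfected. Whether each replicate had its own transfection is not stated in the labels. The p-values therefore reflect how these libraries varied, possibly for technical reasons.

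LUBAC joins ubiquitin molecules head to tail into linear chains, which recruit and activate the IKK complex of the NF-kB pathway after TNF receptor, interleukin and pattern receptor signals. TNIP2, also called ABIN-2, is an adaptor protein that binds ubiquitin chains and restrains NF-kB signalling. TBK1 and IKBKE are IKK-related kinases that phosphorylate the interferon regulatory factor IRF3, and TBK1 also acts in selective autophagy. Each kinase is held in separate complexes by TANK, AZI2 (also called NAP1) or TBKBP1 (also called SINTBAD), which share a TBK1-binding segment.

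In RNA purified with the TNIP2 fragment, AZI2 and TBK1 were higher and IKBKE, TBKBP1 and RBCK1 were lower than in the fragment's own extract and than in RNA purified with the tag alone. RNF31, SHARPIN and TANK did not pass the test in either comparison. Of the 8 genes, 0 were called between the extracts and 0 between Control Pulldown and Control Input. Calls among all genes were common with the TNIP2 fragment. Of all genes tested, 58.1% were called in TNIP2 Pulldown over TNIP2 Input, beside 5 of the 8 genes, and 59.4% in TNIP2 Pulldown over Control Pulldown, again beside 5 of 8. The count of members called was therefore near the background. Genes were called at a Benjamini-Hochberg adjusted p under 0.05 in limma, on log2(normalized count + 1).

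Recovered depth was 10313251 to 29529384 reads in TNIP2 Pulldown, 8898504 to 16759421 in TNIP2 Input, 3591136 to 6404744 in Control Pulldown and 13793549 to 20791557 in Control Input. The transfected gene separated the constructs as labelled. TNIP2 had 51905 to 193013 normalized counts in TNIP2 Pulldown and 13318 to 46568 in TNIP2 Input, against 309 to 1472 in Control Pulldown and 272 to 304 in Control Input. The 1472 was Control Pulldown replicate 1 alone, and replicates 2 and 3 had 309 and 391. The epithelial keratin genes KRT8 and KRT18 were present in every library (136 to 286 and 436 to 806 normalized counts), while the kidney transcription factor gene PAX2 had 2 to 22. Of 6 blood cell genes 2 passed the filter, with CD3E and HBB at 0 in all 12 libraries and summed levels of 35 to 38 in TNIP2 Pulldown and 20 to 54 in the other groups. Of 5 fibroblast and endothelial genes 1 passed, with sums of 84 to 95 in TNIP2 Pulldown and 21 to 75 in the other groups. The summed level of 5 of 5 genes listed as seen in HEK293 (PAX2, GATA2, NEFL, NEFM and VIM) was 12311 to 14698 in TNIP2 Pulldown, 4966 to 5720 in TNIP2 Input, 4695 to 5706 in Control Pulldown and 5434 to 5844 in Control Input, and the part of these shifts in the results below was not tested. Over 10536 well-expressed genes, TNIP2 Pulldown replicate 3 departed less from the TNIP2 Input mean than the other TNIP2 Pulldown libraries did. The slope of its log2 change on the mean change of the other replicates was 0.80, and those of replicates 1 and 2 were 0.94 and 1.12. Normalized counts had been scaled between libraries by the authors, so a change in 1 gene is relative to that scale. Their sum over all genes was 12639745 to 15074851 in TNIP2 Pulldown and 10182326 to 11068819 in the other groups. The part of this difference in the results below was not tested. Fewer cells with a transcript cannot be told apart from less of it per cell.

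AZI2, the adaptor NAP1, was the most abundant of the 8 per length and rose with the fragment. It had 2066, 2311 and 1993 normalized counts in TNIP2 Pulldown replicates 1 to 3, and 1089, 1031 and 1211 in TNIP2 Input. In Control Pulldown it had 1197, 1184 and 1159, and in Control Input 1129, 1103 and 1154. The 3 TNIP2 Pulldown libraries were all above the 9 others, which lay close together. The means were 2123 ± 167 in TNIP2 Pulldown and 1110 ± 91.9 in TNIP2 Input (SD, n = 3 each), a log2 fold change of 0.94 (adjusted p = 2.3e-05, SE 0.13), or 1.91-fold. Against Control Pulldown (1180 ± 19.3) it was 0.84 (adjusted p = 5.6e-05, SE 0.13). Under quantile normalization AZI2 had 0.53 over TNIP2 Input (adjusted p = 0.0013, and between 1.9e-06 and 0.034 under the alternatives run) and 0.45 over Control Pulldown (adjusted p = 0.0044, and between 3.0e-06 and 0.022), where TBK1 had 0.55 and 0.46. Control Pulldown and Control Input did not overlap for AZI2, but the log2 fold change there was 0.06 (SE 0.13). Between 1003 and 4527 reads lay behind each TNIP2 value and 418 to 2121 behind each Control value.

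TBK1, the kinase that phosphorylates IRF3 and autophagy receptors, also rose with the fragment. It had 834, 816 and 599 normalized counts in TNIP2 Pulldown, against 462, 513 and 459 in TNIP2 Input. Counts were 452, 503 and 573 in Control Pulldown and 582, 487 and 575 in Control Input. Replicate 3 of TNIP2 Pulldown was well below replicates 1 and 2 and lay just above the highest of the other 9 libraries, which reached 582. The means were 749.7 ± 131 in TNIP2 Pulldown and 478 ± 30.3 in TNIP2 Input (SD, n = 3 each), a log2 fold change of 0.63 (adjusted p = 0.0043, SE 0.17), or 1.55-fold. Against Control Pulldown (509 ± 60.7) it was 0.55 (adjusted p = 0.010, SE 0.17), a call that ended without Control Pulldown replicate 1 (0.47, adjusted p = 0.051, and between 3.1e-04 and 0.28 under the alternatives run).

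The promoters of AZI2 and TBK1 are printed because these were the members that rose, so that their sequences can be set side by side. The libraries measured RNA, not promoter activity. Both are from RefSeq (GRCh38.p14), 250 bases before to 50 after the annotated gene start, 5′ to 3′ on the gene's strand. AZI2 lies at chr3:28348775-28349074 on the minus strand and TBK1 at chr12:64451870-64452169 on the plus strand. Capitals mark CCAAT (the CCAAT box) and CGGAAG (a core bound by ETS factors), on either strand.
AZI2: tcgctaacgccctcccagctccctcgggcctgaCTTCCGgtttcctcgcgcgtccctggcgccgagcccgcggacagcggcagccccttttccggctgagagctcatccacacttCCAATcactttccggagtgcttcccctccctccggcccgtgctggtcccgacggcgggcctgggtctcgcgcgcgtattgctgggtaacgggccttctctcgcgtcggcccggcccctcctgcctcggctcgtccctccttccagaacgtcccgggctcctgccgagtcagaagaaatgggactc
TBK1: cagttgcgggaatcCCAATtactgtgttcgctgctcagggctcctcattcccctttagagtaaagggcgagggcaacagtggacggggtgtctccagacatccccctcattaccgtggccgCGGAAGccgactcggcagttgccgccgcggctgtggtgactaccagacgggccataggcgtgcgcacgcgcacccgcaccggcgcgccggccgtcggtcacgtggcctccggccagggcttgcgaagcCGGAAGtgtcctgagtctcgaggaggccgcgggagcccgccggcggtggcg
A CCAAT match stood in both, as in 34.6% of 35116 promoters of the same length, and CGGAAG matched in both, as in 19.5%. CCAAT and CGGAAG share no base in either promoter. No match was found on either strand of these windows for the kB consensus (in 11.3% of promoters), for TATAAA (11.5%) or for the GC box GGGCGG (45.0%). GC content was 68.7% for AZI2 and 68.3% for TBK1, against a median of 58.7% over all promoters. In the first listed promoter of members that did not rise, CGGAAG matched in RBCK1 and CCAAT in TANK. RNF31, IKBKE and TBKBP1 had neither, and SHARPIN had no promoter to scan. Of these, only TANK had a kB match. Their GC content was 80% for TBKBP1, 74% for RBCK1, 67.3% for RNF31, 55% for IKBKE and 40.3% for TANK.

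IKBKE, the second IKK-related kinase, whose gene is known to be induced by inflammatory signals in immune cells, was the least abundant member. It had 22, 22 and 29 normalized counts in TNIP2 Pulldown and 45, 46 and 56 in TNIP2 Input. It had 40, 40 and 43 in Control Pulldown and 54, 41 and 49 in Control Input. The TNIP2 Pulldown libraries were the lowest of the 12, with no overlap. The means were 24.3 ± 4.04 in TNIP2 Pulldown and 49.0 ± 6.08 in TNIP2 Input (SD, n = 3 each), and IKBKE fell by 0.99 on the log2 scale (adjusted p = 0.0022, SE 0.23), or 1.98-fold. Against Control Pulldown (41.0 ± 1.73) the log2 fold change was -0.74 (adjusted p = 0.013, SE 0.23). That call ended in a fit of only the 6 libraries compared (adjusted p = 0.059, and between 0.0032 and 0.059 under the alternatives run). Only 14 to 25 reads lay behind each IKBKE value in Control Pulldown and 23 to 43 in TNIP2 Pulldown, which makes it the least precise of the 8.

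The kinase pair thus moved in opposite directions in the same libraries. FPKM is fragments per kilobase of transcript, here on the same library scale as the normalized counts. Per length (FPKM), TBK1 was 42.7, 41.8 and 22.9 times IKBKE in TNIP2 Pulldown replicates 1 to 3. The ratio was 11.6, 12.4 and 9.30 in TNIP2 Input, 12.7, 14.1 and 15.03 in Control Pulldown and 12.2, 13.5 and 13.2 in Control Input. TNIP2 Pulldown lay above all 9 others, and replicate 3 was nearest to them. That position had to follow, as TBK1 was above and IKBKE below all 9 others in these libraries, and it is no separate result.

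TBKBP1, the adaptor SINTBAD, had 195, 190 and 286 normalized counts in TNIP2 Pulldown and 373, 379 and 400 in TNIP2 Input. It had 361, 397 and 366 in Control Pulldown and 365, 407 and 319 in Control Input. All 3 TNIP2 Pulldown libraries were below the 9 others, again with replicate 3 nearest. The means were 224 ± 54.0 in TNIP2 Pulldown and 384 ± 14.2 in TNIP2 Input (SD, n = 3 each), and TBKBP1 fell by 0.80 on the log2 scale (adjusted p = 0.0012, SE 0.18). Against Control Pulldown (375 ± 19.5) the log2 fold change was -0.77 (adjusted p = 0.0017, SE 0.18).

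TANK, the adaptor first described as a TRAF-binding protein, had 279, 272 and 281 normalized counts in TNIP2 Pulldown and 331, 325 and 381 in TNIP2 Input. It had 421, 298 and 306 in Control Pulldown and 348, 342 and 391 in Control Input. The TNIP2 Pulldown libraries agreed closely and were the lowest of the 12, but the gap was small and Control Pulldown replicate 1 stood high. The log2 fold change was -0.31 over TNIP2 Input (SE 0.16, 95% interval -0.66 to 0.04, adjusted p = 0.12) and -0.28 over Control Pulldown (SE 0.16, 95% interval -0.63 to 0.07, adjusted p = 0.15), neither of which passed the test.

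The 3 adaptors therefore stood in other proportions in TNIP2 Pulldown. Of the summed FPKM of AZI2, TANK and TBKBP1, AZI2 made up 76.8%, 79.1% and 73.7% in TNIP2 Pulldown. Its share was 55.6%, 54.4% and 55.4% in TNIP2 Input, 54.4%, 58.5% and 58.5% in Control Pulldown and 55.9%, 54.5% and 55.7% in Control Input. TBKBP1 made up 5.90% to 9.59% in TNIP2 Pulldown, 16.6% to 18.2% in TNIP2 Input, 14.9% to 17.8% in Control Pulldown and 13.95% to 18.3% in Control Input. Neither share overlapped between the TNIP2 Pulldown libraries and the others. For the AZI2 share this had to follow, as AZI2 was above and TANK and TBKBP1 were below all other libraries there. The shares are descriptions, since a share over chosen genes was not tested.

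**Figure D1:**
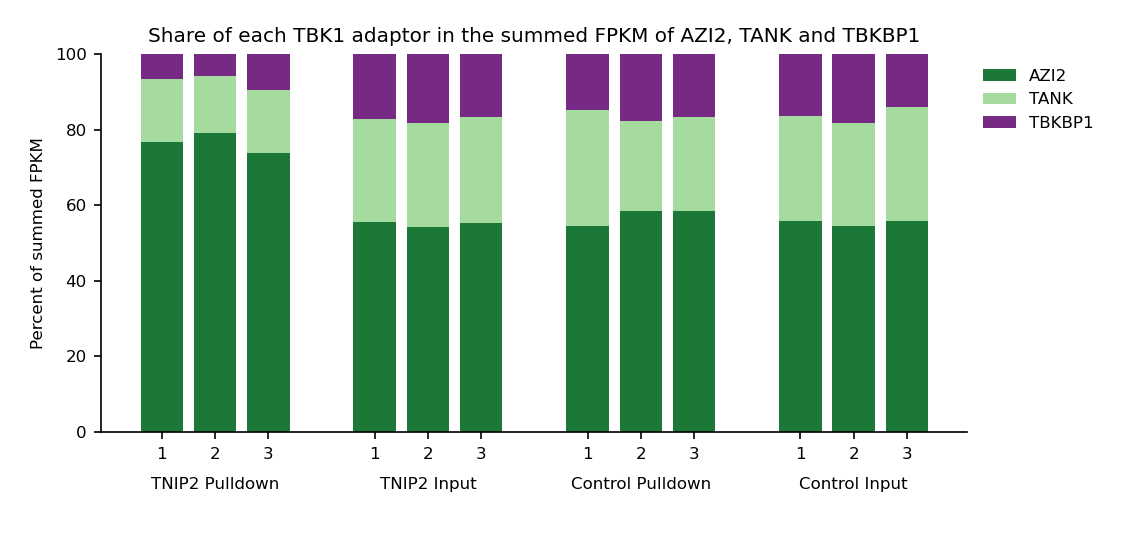
Each bar is 1 library, stacked to 100% (vertical axis, percent of summed FPKM) from the AZI2, TANK and TBKBP1 shares, with the 3 replicates of each group side by side. The AZI2 part reaches 73.7% to 79.1% in TNIP2 Pulldown and 54.4% to 58.5% in the other 9 libraries.

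Of the LUBAC subunits, RBCK1, the RING protein also called HOIL-1, was lower with the fragment. It had 224, 215 and 239 normalized counts in TNIP2 Pulldown and 307, 348 and 328 in TNIP2 Input. It had 332, 309 and 338 in Control Pulldown and 360, 341 and 345 in Control Input. The TNIP2 Pulldown libraries were close together and well below the other 9, and Control Pulldown lay just below Control Input without overlap. The means were 226 ± 12.1 in TNIP2 Pulldown and 328 ± 20.5 in TNIP2 Input (SD, n = 3 each), and RBCK1 fell by 0.53 on the log2 scale (adjusted p = 0.0045, SE 0.14). Against Control Pulldown (326 ± 15.3) the log2 fold change was -0.53 (adjusted p = 0.0047, SE 0.14).

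RNF31, or HOIP, the catalytic subunit that forms the linear bond, had 425, 358 and 590 normalized counts in TNIP2 Pulldown and 449, 530 and 600 in TNIP2 Input. It had 444, 433 and 533 in Control Pulldown and 508, 495 and 456 in Control Input. TNIP2 Pulldown held both the lowest of the 12 values and 1 of the highest, so the groups overlapped throughout. The log2 fold change was -0.22 over TNIP2 Input (SE 0.19, 95% interval -0.62 to 0.18, adjusted p = 0.33) and -0.06 over Control Pulldown (SE 0.19, 95% interval -0.47 to 0.34, adjusted p = 0.79). Without TNIP2 Pulldown replicate 3, the change over TNIP2 Input was -0.42 and passed the test (adjusted p = 0.038, and between 0.038 and 0.81 under the alternatives run).

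SHARPIN, the accessory subunit that stabilises the complex, had 430, 403 and 406 normalized counts in TNIP2 Pulldown and 506, 438 and 600 in TNIP2 Input. It had 498, 492 and 409 in Control Pulldown and 565, 516 and 481 in Control Input. TNIP2 Pulldown lay below TNIP2 Input without overlap but overlapped with Control Pulldown. The log2 fold change was -0.31 over TNIP2 Input (SE 0.16, 95% interval -0.64 to 0.03, adjusted p = 0.11) and -0.17 over Control Pulldown (SE 0.16, 95% interval -0.51 to 0.17, adjusted p = 0.37).

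**Figure D2:**
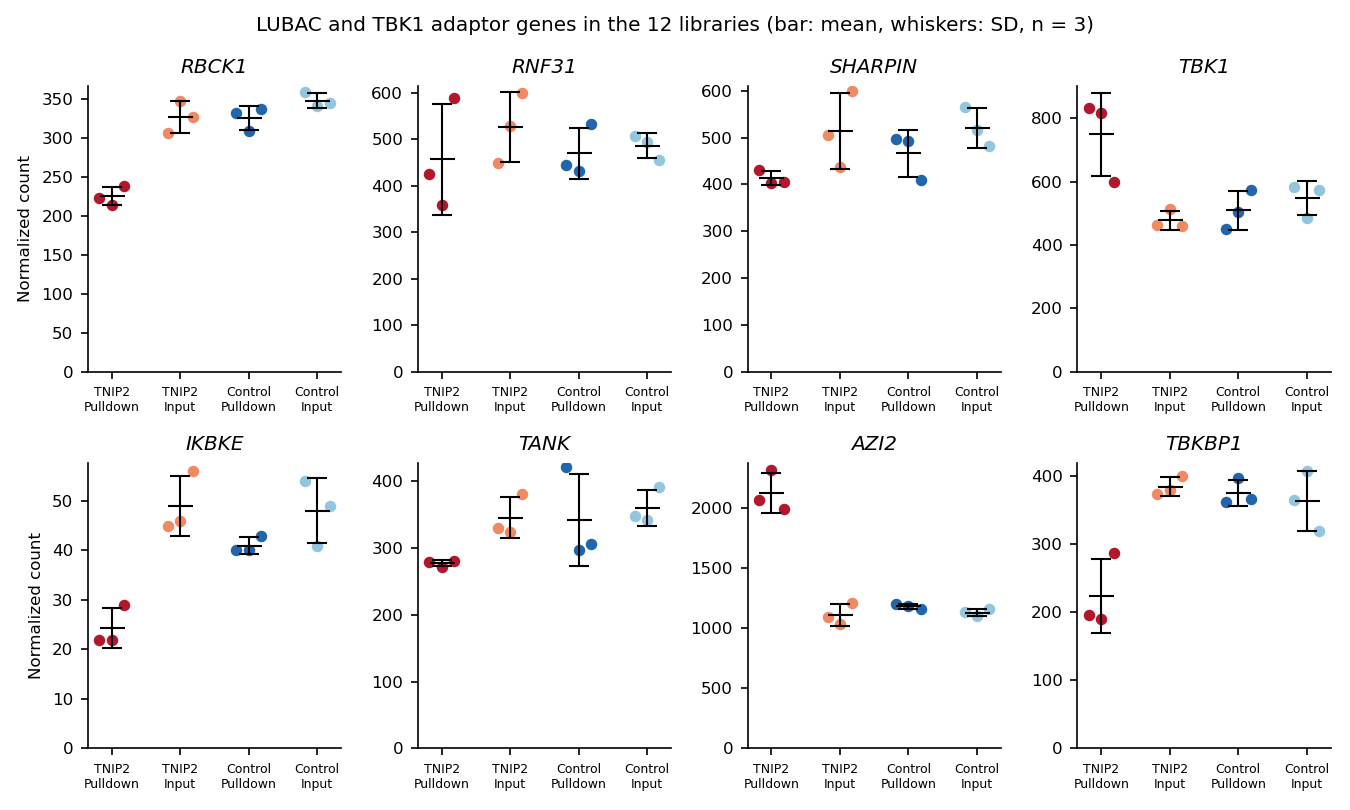
Each panel is 1 gene, with its normalized count on a vertical axis from 0 and the groups TNIP2 Pulldown, TNIP2 Input, Control Pulldown and Control Input from left to right. Points are libraries in replicate order, and bars with whiskers are means ± SD of 3. AZI2 and TBK1 stand higher in TNIP2 Pulldown, IKBKE, TBKBP1 and RBCK1 lower, and the RNF31 groups overlap.

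Ranges over the 3 libraries of each group did not overlap for 7 of 8 genes in TNIP2 Pulldown over TNIP2 Input, 2 higher and 5 lower, against 57.5% of all genes tested (29.4% higher and 28.1% lower). In TNIP2 Pulldown over Control Pulldown this held for 6 of 8, 2 higher and 4 lower, against 61.0% (31.5% higher and 29.5% lower). In TNIP2 Input over Control Input it held for 0 of 8, against 8.94% (3.62% higher and 5.32% lower). In Control Pulldown over Control Input it held for 2 of 8, AZI2 higher and RBCK1 lower, against 13.0% (5.83% higher and 7.15% lower). For 6 of 8 genes, 2 higher and 4 lower, the TNIP2 Pulldown libraries lay outside the range of all 9 others, against 50% of all genes tested (26.2% higher and 23.8% lower), and the exceptions were RNF31 and SHARPIN.

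By direction in TNIP2 Pulldown over TNIP2 Input, 2 of the 8 genes were called higher, against 29.8% of all genes tested, and 3 lower, against 28.3%. The same numbers in TNIP2 Pulldown over Control Pulldown were 2 higher (30.6% of all genes) and 3 lower (28.7%). The median log2 fold change of the 8 was -0.31 over TNIP2 Input and -0.23 over Control Pulldown, beside 0.01 and 0.03 for all genes tested. The quartiles of all genes were -0.73 and 0.78 over TNIP2 Input, and AZI2, TBKBP1 and IKBKE lay outside them. Of all genes, 20.9% had a higher log2 fold change than AZI2, 29.1% a higher one than TBK1 and 82.1% a higher one than IKBKE, so the 8 genes lay well inside the distribution. The 2 comparisons share the TNIP2 Pulldown libraries and are not independent.

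**Figure D3:**
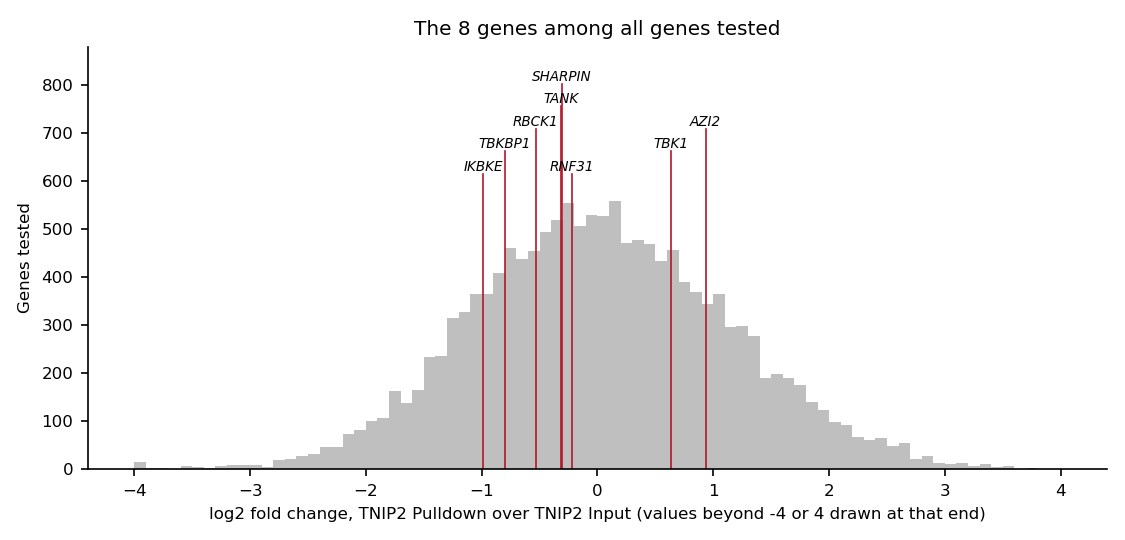
The grey histogram counts the 14627 genes tested by their log2 fold change in TNIP2 Pulldown over TNIP2 Input (horizontal axis, bins of 0.1), and red lines mark the 8 genes. They run from IKBKE at -0.99 to AZI2 at 0.94 within the bulk of the distribution.

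Total RNA of the 2 constructs was compared in TNIP2 Input over Control Input, where 0.00684% of all genes were called (0.00684% higher and 0% lower). The log2 fold changes of the 8 genes lay between -0.19 (TBK1, SE 0.17) and 0.11 (RNF31, SE 0.19), with an adjusted p of 1 for each, and 0 had an unadjusted p under 0.05 in limma; voom on recovered reads also called 0. For AZI2 the 95% interval of the difference was -0.30 to 0.25 and for TBK1 -0.55 to 0.16. Both intervals are on the scale of the normalized counts. With each library centred on its cytosolic ribosomal protein genes, AZI2 had 0.22 (SE 0.17) and TBK1 0.05 (SE 0.16) in this comparison. Whether extract RNA had a part in the purified changes was not tested.

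With the tag alone, Control Pulldown over Control Input had 0.137% of all genes called (0% higher and 0.137% lower). The 8 genes had log2 fold changes from -0.21 (IKBKE, SE 0.23) to 0.06 (AZI2, SE 0.13), again with 0 called, 0 with an unadjusted p under 0.05 and 0 by voom. The 95% interval for IKBKE, the least deeply counted, was -0.71 to 0.29.

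The enrichment by the TNIP2 fragment (Pulldown over its Input) was then set against the enrichment by the tag, as a difference, in which 42.8% of all genes were called (22.6% higher and 20.2% lower). Of the 8 genes, 3 were called, 2 higher and 1 lower: AZI2 with 0.87 (adjusted p = 0.0015, SE 0.18), TBK1 with 0.74 (adjusted p = 0.019, SE 0.23) and TBKBP1 with -0.85 (adjusted p = 0.013, SE 0.25). IKBKE had -0.77 (adjusted p = 0.073, SE 0.33) and RBCK1 -0.44 (adjusted p = 0.089, SE 0.20), and neither passed. Ratios of same-numbered libraries are given next, although tag-alone libraries were not taken as paired by number. The Pulldown-over-Input ratio of AZI2 was 1.90, 2.24 and 1.65 with the fragment and 1.06, 1.07 and 1.00 with the tag alone. That of TBK1 was 1.81, 1.59 and 1.31 with the fragment and 0.777, 1.03 and 0.997 with the tag alone. That of TBKBP1 was 0.523, 0.501 and 0.715 with the fragment and 0.989, 0.975 and 1.15 with the tag alone. For each of these genes, which had been called in the same libraries, every fragment ratio lay on one side of every tag-alone ratio. The same held for IKBKE (0.478 to 0.518 with the fragment, 0.741 to 0.976 with the tag alone), which was not called. It also held for RBCK1 (0.618 to 0.730 and 0.906 to 0.980), likewise not called. The ratios of RNF31, SHARPIN and TANK overlapped. How often such a separation held among all genes was not computed. The call of TBK1 ended without Control Pulldown replicate 1 (0.66, adjusted p = 0.054) and without Control Input replicate 1 (0.70, adjusted p = 0.050), and its adjusted p lay between 0.0014 and 0.59 under the alternatives run. Without TNIP2 Pulldown replicate 3 the number called was 5, as RBCK1 (-0.48, adjusted p = 0.045, and between 0.012 and 0.24 under the alternatives run) and IKBKE (-0.90, adjusted p = 0.031, and between 0.019 and 0.18 under the alternatives run) also passed.

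**Figure D4:**
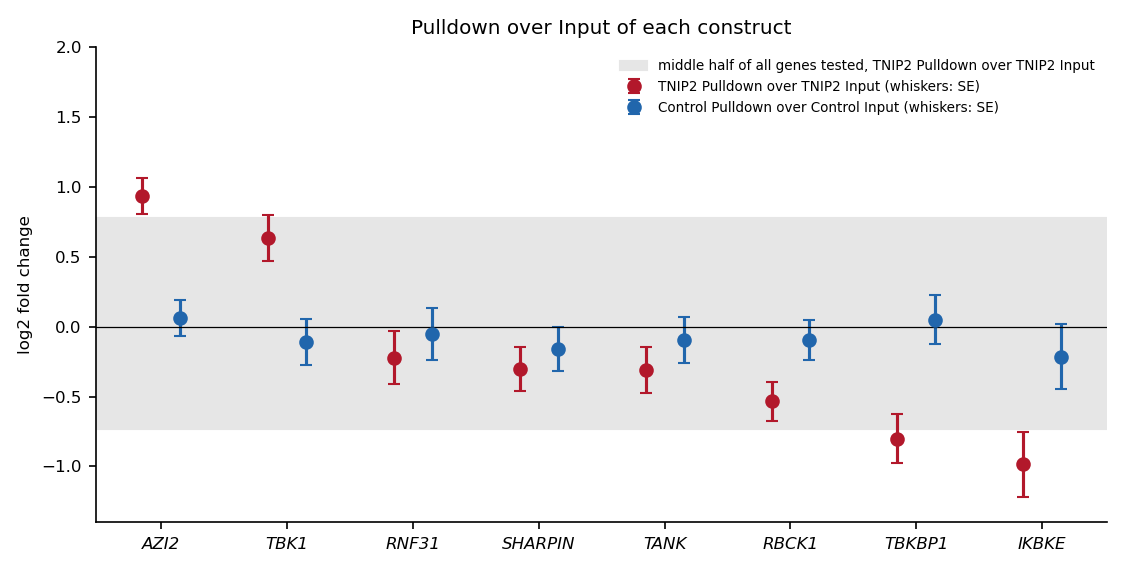
Points are fitted log2 fold changes with SE (vertical axis) for the 8 genes (horizontal axis), in TNIP2 Pulldown over TNIP2 Input (red) and Control Pulldown over Control Input (blue), and the grey band runs between the quartiles of all genes tested for the TNIP2 fragment. The red points spread from 0.94 (AZI2) to -0.99 (IKBKE), and the blue points stay between -0.21 and 0.06.

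The sizes and some of the calls depended on the reference scale, but no sign of the 8 genes turned under ribosomal centring in the comparisons of this paragraph. Centring each library on its cytosolic ribosomal protein genes moved the median of all genes by -0.47 in TNIP2 Pulldown over TNIP2 Input, and TBK1 then had 0.16 (adjusted p = 0.40, and between 3.9e-04 and 0.40 under the alternatives run) and AZI2 0.46 (adjusted p = 0.034). Centring moves every gene in a comparison by the same amount, so values relative to the shifted median repeat the reported fit by construction. They were 0.63 for TBK1 and 0.93 for AZI2, -0.54 for RBCK1, -0.81 for TBKBP1 and -0.99 for IKBKE. On the ribosomal scale RNF31 (-0.69), SHARPIN (-0.78) and TANK (-0.78) were also called lower. Their values relative to the shifted median, -0.23, -0.31 and -0.32, likewise only repeat the reported fit. Against Control Pulldown, where this centring moved the median of all genes by -0.33, TBK1 had 0.21 (adjusted p = 0.28, and between 3.1e-04 and 0.28 under the alternatives run), and TANK had -0.62 and was called lower. In the difference of enrichments, moved by -0.58, the calls of AZI2 (0.29, adjusted p = 0.36, and between 6.1e-05 and 0.36 under the alternatives run) and TBK1 (0.16, adjusted p = 0.59, and between 0.0014 and 0.59 under the alternatives run) ended, and RBCK1 (-1.02) and IKBKE (-1.35) were called lower.

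The order of the 8 by FPKM in extracts ran from AZI2 to IKBKE. In TNIP2 Input it was AZI2 (26.0 ± 2.16), SHARPIN (24.9 ± 3.95), TBK1 (13.6 ± 0.865), RNF31 (13.0 ± 1.87), TANK (13.0 ± 1.18), RBCK1 (10.4 ± 0.652), TBKBP1 (8.16 ± 0.295) and IKBKE (1.24 ± 0.145; SD, n = 3 each). AZI2 and SHARPIN overlapped there, as did TBK1, RNF31 and TANK. Control Pulldown and Control Input had the same order but with TANK above RNF31, which overlapped in Control Pulldown and not in Control Input. In TNIP2 Pulldown the order was AZI2 (49.8 ± 3.90), TBK1 (21.3 ± 3.72), SHARPIN (19.99 ± 0.711), RNF31 (11.3 ± 2.94), TANK (10.4 ± 0.171), RBCK1 (7.20 ± 0.379), TBKBP1 (4.75 ± 1.15) and IKBKE (0.619 ± 0.109). AZI2 stood apart from all others there, and TBK1 overlapped with SHARPIN and RNF31 with TANK.

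Of the summed FPKM of the LUBAC subunits, RNF31 made up 25.1% to 34.8% in TNIP2 Pulldown, 24.5% to 28.9% in TNIP2 Input, 24.0% to 30.1% in Control Pulldown and 24.5% to 25.4% in Control Input, and these ranges overlapped. The RBCK1 share was 18.2% to 19.5% in TNIP2 Pulldown, 19.2% to 24.4% in TNIP2 Input, 22.2% to 24.6% in Control Pulldown and 22.3% to 24.1% in Control Input, so that TNIP2 Pulldown lay below both Control groups and overlapped with TNIP2 Input. The SHARPIN share was 47.0% to 55.4% in TNIP2 Pulldown and 45.3% to 54.0% in the other 9 libraries.

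Exonic length estimated from the deposited tables ran from 1827 bases for SHARPIN to 4159 for TBKBP1, beside a median of 3340 for the 12694 tested genes with an estimate. The genes that rose, AZI2 (3774) and TBK1 (3106), and those that fell, TBKBP1 (4159), IKBKE (3495) and RBCK1 (2779), were interleaved in length.

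Genes around these complexes were described from 2 lists. Of 13 partners, readers and erasers of linear chains, all tested, 6 were higher and 2 lower in TNIP2 Pulldown over TNIP2 Input, where 29.8% of all genes were higher and 28.3% lower. Over Control Pulldown 8 were higher and 3 lower, where 30.6% of all genes were higher and 28.7% lower. Their median log2 fold changes were 0.63 and 0.62, beside 0.01 and 0.03 for all genes. TNFAIP3, the A20 protein that binds and edits ubiquitin chains, averaged 229 normalized counts in TNIP2 Pulldown and 50 in Control Pulldown, which is 2.18 on the log2 scale (adjusted p = 7.1e-07, SE 0.21). SPATA2, which bridges the deubiquitinase CYLD to RNF31, averaged 276 in TNIP2 Pulldown and 58.0 in Control Pulldown, 2.19 on the log2 scale (adjusted p = 4.3e-06, SE 0.26). UBE2L3, a ubiquitin-conjugating enzyme that works with RNF31, had 0.89 (adjusted p = 1.0e-04, SE 0.15), and the TNF receptor gene TNFRSF1A had -1.34 (adjusted p = 8.7e-05, SE 0.21).

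Of 17 sensors, cargo receptors, substrates and regulators of TBK1 and IKBKE, 16 were tested and MB21D1 was not. Of the 16, 7 were higher and 6 lower in TNIP2 Pulldown over TNIP2 Input (29.8% and 28.3% of all genes), and 7 were higher and 5 lower over Control Pulldown (30.6% and 28.7%). Their medians were -0.34 and -0.16, beside 0.01 and 0.03 for all genes. IRF3, the kinases' transcription factor substrate, averaged 194 normalized counts in TNIP2 Pulldown and 564 in Control Pulldown, which is -1.58 on the log2 scale (adjusted p = 9.3e-06, SE 0.20). TRAF3, a ubiquitin ligase that couples receptors to TBK1, averaged 2052 in TNIP2 Pulldown and 770 in Control Pulldown, 1.39 on the log2 scale (adjusted p = 7.3e-06, SE 0.17). SMCR8, a partner of C9orf72 in autophagy, had 1.29 (adjusted p = 3.6e-05, SE 0.19), and RALB, a small GTPase linked to TBK1 through the exocyst, had -1.42 (adjusted p = 1.2e-05, SE 0.19). Across both lists, 0 genes were called in TNIP2 Input over Control Input and 0 in Control Pulldown over Control Input.

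The genes whose log2 values followed each member most closely over the 12 libraries were sought among 10432 named genes. These correlations are descriptions, and for most members they rest largely on the step between TNIP2 Pulldown and the other groups. AZI2 was followed by BAZ1A, a chromatin remodelling subunit (Pearson r = 0.996), and PAPD5, a non-canonical poly(A) polymerase (r = 0.995). TBK1 was followed by UBE3A, a ubiquitin ligase (r = 0.976), and PRKRIR (r = 0.967). TBKBP1 was followed by IRF3 (r = 0.977) and MVD, an enzyme of cholesterol synthesis (r = 0.975). IKBKE was followed by FAM118B (r = 0.984) and NME6 (r = 0.978), and RBCK1 by ARRDC1 (r = 0.983) and ACTR1B, a dynactin subunit (r = 0.982). For the genes that were not called, the nearest were PLEKHG4 (r = 0.956) and ARFGAP1 (r = 0.955) for RNF31, NMB (r = 0.930) and PSENEN (r = 0.923) for SHARPIN, and PLA2G16 (r = 0.923) and GKAP1 (r = 0.885) for TANK. BAZ1A averaged 4856 ± 834 normalized counts in TNIP2 Pulldown, 1272 ± 219 in TNIP2 Input, 1325 ± 121 in Control Pulldown and 1250.0 ± 64.8 in Control Input, a larger step than that of AZI2.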

How the data were processed

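Normalized counts and FPKM, each deposited per gene symbol and library, were the starting values. The submitters' processing notes name TopHat2 2.0.14, DESeq2 1.6.3 and the hg19 build. How reads were counted, with which annotation and strand setting, is not stated there. The authors' normalized count had been scaled between libraries and then rounded, so it was treated as a score and no count model was run on it. Columns were matched to groups by letter and number, and the letter F was given to the TNIP2 fragment by elimination. The deposited FPKM is not rounded to whole units, and whole reads were recovered from its steps. Of the low values checked in each library (16 to 1370), 100% were whole to within 0.1 reads. The search was tested on simulated data. Reads are not unique molecules.

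Genes reaching 10 normalized counts in 3 libraries or more were tested with limma 3.58.1 (R 4.3.3; lmFit, eBayes with trend) on log2(normalized count + 1), which understates changes of low genes. All 12 libraries were fitted with a mean per group and 8 residual degrees of freedom, two-sided, with Benjamini-Hochberg adjustment over all genes tested, and the fit was tested on simulated data. The alternatives were a pseudocount of 5, no filter, a filter of 50 in 3 libraries, the FPKM table (log2 of FPKM + 0.1), quantile normalization, centring on ribosomal protein genes, voom on the recovered reads, only the libraries compared, replicate blocks and libraries left out. The labels give no batch. Whether replicate numbers pair the libraries was checked from the data over 10536 genes. Deviations of same-numbered Input and Pulldown libraries correlated at 0.39, 0.51 and 0.50 with the TNIP2 fragment, which were taken as paired. With the tag alone they correlated at 0.04, 0.22 and 0.10 and were not taken as paired. Different-numbered libraries correlated at -0.49 to 0.35 with the fragment and at -0.42 to 0.31 with the tag alone. The reported fit used no pairing, which entered only in the replicate blocks among the alternatives. Named genes are the 8 members, TNIP2, up to 4 genes per pathway list with the smallest p in TNIP2 Pulldown over Control Pulldown, and the 2 best correlated named genes per member with a mean of 100 or more. The members and lists were chosen with earlier results of these data known.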

Additional observations from a re-analysis of the deposited data

Results flagged for a closer look

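The change of Pulldown over Input differed between the TNIP2 fragment and the tag alone for 3 of the 8 genes, by limma's test of the difference itself. The log2 difference was 0.87 for AZI2, 0.74 for TBK1 and -0.85 for TBKBP1, with adjusted p = 0.0015, 0.019 and 0.013 in limma. Among all genes tested, 42.8% were called in this comparison.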

How the results depend on the processing

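Of 891 single-gene values recomputed under an alternative, 852 kept their direction and their side of the threshold. Another 8 lost a call, 11 gained one and 20 changed sign, of which 0 were called. Many of these values could not change direction. The filters, the replicate blocks, only the libraries compared and leaving out a library outside the comparison return the same log2 fold change. Only the adjusted p could move there. FPKM is the normalized count rescaled per gene, so it could change little. With TNIP2 Pulldown over TNIP2 Input, 5 genes were called, 5 to 6 with 1 library left out and 7 with centring on ribosomal protein genes; over Control Pulldown 4 to 5 were called with 1 library left out. The normalized count filter of 50 left IKBKE untested. In the difference of enrichments 3 genes were called, 2 to 5 with 1 library left out and 5 without both TNIP2 libraries numbered 3, an alternative chosen after seeing the data; the cause was not tested. With replicate number as a replicate block, 5, 5 and 3 genes were called in these 3 comparisons, and this block changed no call of the 8 genes in any of the 5 comparisons. A replicate block within construct, added after seeing the data, was run for TNIP2 Pulldown over TNIP2 Input, Control Pulldown over Control Input and the difference of enrichments, and changed no call there. Quantile normalization changed no call either, but AZI2 was at 0.53 over TNIP2 Input, 0.45 over Control Pulldown and 0.46 in the difference of enrichments; the cause was not tested.

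Sign changes touched uncalled values near 0. Centring on ribosomal protein genes turned RBCK1, SHARPIN, TBK1, TANK and AZI2 to 0.155, 0.220, 0.0515, 0.185 and 0.219 in TNIP2 Input over Control Input, and RBCK1, RNF31, TBK1 and TANK to 0.0132, 0.0551, 0.00159 and 0.0169 in Control Pulldown over Control Input. IKBKE was at -0.0668 in TNIP2 Input over Control Input without both TNIP2 libraries numbered 3. With 1 library left out, TNIP2 Input over Control Input ranged from -0.142 to 0.0847 for SHARPIN, -0.0908 to 0.0252 for AZI2, -0.0756 to 0.119 for IKBKE and -0.00599 to 0.169 for TBKBP1. RNF31 ranged from -0.262 to 0.0976 in TNIP2 Pulldown over Control Pulldown and from -0.148 to 0.00192 in Control Pulldown over Control Input, where TBKBP1 ranged from -0.0420 to 0.133. Among all genes, the same centring called 2437 higher and 6033 lower in TNIP2 Pulldown over TNIP2 Input in place of 4358 and 4145, 2966 and 5340 over Control Pulldown in place of 4481 and 4201, and 1490 and 4952 in the difference of enrichments in place of 3301 and 2960. Depth limits IKBKE most, with 14 to 25 reads per library in Control Pulldown.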
